A study of Homo sapiens with 4 samples.

Results

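Cholesterol and fatty acid synthesis genes were followed in VCaP cells, a human prostate cancer cell line, after transfection with siRNA against ZBTB7A (siZBTB7A) or with a non-targeting control siRNA (siNTC). ZBTB7A encodes a zinc finger transcription factor of the BTB family. The set held 31 genes out of 60308 gene identifiers per count table, listed by name for their place in the pathways. It comprised 16 enzymes that build cholesterol, 4 genes of the SREBP system that regulates both pathways, the sterol transport gene STARD4, and 10 enzymes that make, elongate or desaturate fatty acids. Both groups were grown in medium with serum. The time after transfection and the siRNA sequences are not given in the sources used here, and the model is 1 cell line.

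Cholesterol is made from acetyl-CoA through mevalonate, farnesyl diphosphate and squalene, followed by ring closure and a series of reductions, demethylations and isomerizations. Fatty acids start from the same acetyl-CoA, which is carboxylated to malonyl-CoA and then joined by fatty acid synthase into palmitate. When sterols are low in the membrane of the endoplasmic reticulum, the escort protein SCAP carries the SREBP precursors to the Golgi, where they are cleaved into transcription factors that induce both pathways, while INSIG1 holds SCAP back when sterols are high. SREBP-2 acts mainly on the sterol genes and SREBP-1c mainly on the fatty acid genes. Prostate cancer cells are known for high fatty acid synthesis, and androgen induces many of these enzymes.

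Each group was represented by 2 count tables, and the tables of a group agreed within sampling noise. Chi-square per degree of freedom over genes with at least 20 summed reads was 0.995 for the siZBTB7A tables (p = 0.659) and 0.993 for the siNTC tables (p = 0.722), against 3.50 to 3.64 between tables of different groups. The tables of a group were therefore counted as 1 library, and the comparison has 1 library per group with no replicate check. Gene reads per table numbered 5556061 and 5745862 for siZBTB7A and 5737738 and 5927656 for siNTC. A gene is said below to be called when it passed edgeR's quasi-likelihood test over all genes (Benjamini-Hochberg adjusted p under 0.05). That test compares the 2 libraries and not the conditions. Levels are CPM, reads of a gene scaled to a common total of gene reads with TMM factors, folds are siZBTB7A over siNTC from the summed tables, and the range after a fold is its exact 95% interval, which covers counting error only. Mitochondrial genes took 20.2% of gene reads in siZBTB7A and 17.1% in siNTC, and reads outside annotated exons were 23.1% to 23.2% of all reads in siZBTB7A and 20.6% in siNTC; the part of either in the folds was not tested beyond leaving the mitochondrial genes out, which kept the same 3 calls. The target, ZBTB7A, had 12.8 and 13.0 CPM in the siZBTB7A tables, against 15.5 and 19.2 CPM in the siNTC tables. Its fold was 0.743 (0.596 to 0.924), and it was not called (edgeR adjusted p = 0.0969). Of 9 luminal prostate markers all 9 were tested, and their summed level was 6151 to 6156 CPM in siZBTB7A and 5913 to 5974 CPM in siNTC, with KLK2, HOXB13 and FOLH1 called higher by edgeR. Of these DESeq2 called FOLH1 alone, and with a correction for transcript GC content and length KLK2 (fold 1.003, edgeR adjusted p = 0.724) and HOXB13 (fold 1.06, edgeR adjusted p = 0.152) were not called. Markers of other cell types were scarce apart from LUM. The 5 leukocyte markers summed to 23 reads in siZBTB7A and 18 in siNTC (CD3E and LYZ at 0), of which CD14 had 23 and 17. The 3 basal markers summed to 16 and 20 (KRT5 at 0), and 2 endothelial markers to 9 and 4 (CDH5 at 0). The 5 fibroblast markers summed to 159 and 193 (COL1A2 at 0), of which LUM had 144 and 178. LUM was at 12.9 CPM in siZBTB7A and 15.1 CPM in siNTC and was tested but not called. The part of these markers in the results was not tested.

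All 31 genes were abundant enough to test, and 28 of them were not called. HMGCS1, which makes the HMG-CoA that feeds the mevalonate pathway, was lower in the siZBTB7A library. ACACA, the acetyl-CoA carboxylase that makes malonyl-CoA, was also lower. FASN, the fatty acid synthase that uses this malonyl-CoA, was higher. The count was thus 1 higher and 2 lower of 31, where 2.25% and 2.72% of the 12848 genes tested were higher and lower. Because well-counted genes pass more easily, a second background is the 1376 genes with at least 2579 reads, the median of the set, of which 20.7% were called. Of the 16 set members at that depth 3 were called, or 18.8%, which is near that background. DESeq2 called 0 of the 31 (3 at an unadjusted p under 0.05; adjusted p = 0.119 for HMGCS1, 0.0516 for ACACA and 0.121 for FASN), and it gave no adjusted p for 7. The exact binomial test called the same 3 genes.

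**Figure D1:**
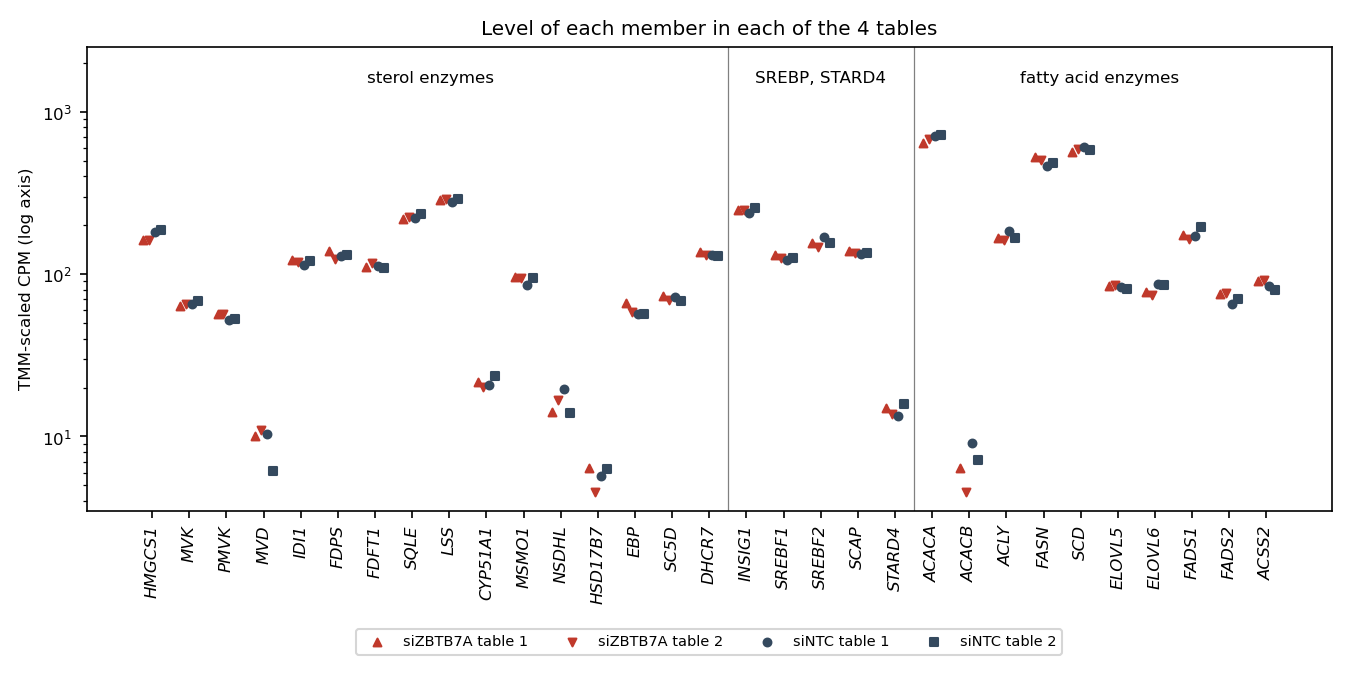
TMM-scaled CPM on a log axis for each of the 31 genes (x axis), in both siZBTB7A tables (red) and both siNTC tables (dark blue). Levels in siZBTB7A run from 5.47 CPM for HSD17B7 and ACACB to 658.5 CPM for ACACA, and in most genes the 4 points lie close together.

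The range of levels across the genes was wide and nearly the same in both libraries, as the plot of levels by table shows. Levels of different genes are compared here as CPM per kilobase of annotated exon, where the exons of all annotated isoforms are merged, so that genes with long alternative ends read low. SCD, the desaturase that makes oleate and palmitoleate, was the highest of the 31 at 108 CPM per kilobase in siZBTB7A and 111 in siNTC. INSIG1 came next at 68.2 in siZBTB7A and 67.4 in siNTC. FASN stood at 55.0 in siZBTB7A and 50.6 in siNTC, SQLE at 51.4 and 52.7, and ACACA at 50.6 and 54.8, so that FASN ranked 3 and ACACA 5 in siZBTB7A, while ACACA ranked 3 and FASN 5 in siNTC. These ranks depend on the annotated exon lengths. ACACB, the mitochondrial isoform of acetyl-CoA carboxylase, was the lowest at 0.377 in siZBTB7A and 0.560 in siNTC, and HSD17B7 was next lowest at 1.14 in siZBTB7A and 1.26 in siNTC.

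The 16 sterol enzymes as a group were level between the libraries. Their summed level was 1582 and 1563 CPM in the siZBTB7A tables, against 1555 and 1591 CPM in the siNTC tables, so the tables of the 2 groups overlapped. The fold of the sum was 0.999 (0.979 to 1.02), and it was 1.003 with unstranded counts. The median log2 fold was 0.02 (-0.004 with a correction for transcript GC content and length), beside 0.001 over all genes tested. Of the 16, 10 had a fold above 1 and 6 below, 1 was called lower and 0 higher. The summed fold without HMGCS1 was 1.02 (0.994 to 1.04).

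The early part of the sterol pathway held the called gene. HMGCS1 (ENSG00000112972.14) had 161 and 162 CPM in the siZBTB7A tables, against 182 and 187 CPM in the siNTC tables. Both siZBTB7A tables lay below both siNTC tables. Its fold was 0.874 (0.821 to 0.931), a log2 fold of -0.19, with an edgeR adjusted p of 0.00160, and the call held with the GC and length correction (fold 0.886, adjusted p = 0.0106). Without siNTC replicate 2 it was not called (log2 fold -0.17, adjusted p = 0.0660). The next steps showed no such difference. MVK, the mevalonate kinase, was at 0.966 (0.872 to 1.07) and PMVK, which adds the next phosphate, at 1.09 (0.972 to 1.22), neither of them called. MVD, the decarboxylase that gives isopentenyl diphosphate, had 55 and 62 reads in the siZBTB7A tables, against 60 and 37 reads in the siNTC tables. Its fold of 1.28 (0.967 to 1.69) rests on the low count in siNTC replicate 2, and without that replicate its log2 fold was 0.02. IDI1, the isomerase, was at 1.02 (0.948 to 1.10), FDPS, which makes farnesyl diphosphate, at 1.01 (0.937 to 1.08), and FDFT1, the squalene synthase, at 1.03 (0.953 to 1.11). FDPS has 8 annotated pseudogenes, and its unique reads are uncertain for that reason.

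From squalene onward 0 of 9 genes were called by edgeR (0 at an unadjusted p under 0.05, 0 by DESeq2 and 0 by the exact binomial test). SQLE, the squalene epoxidase, had 217 and 225 CPM in the siZBTB7A tables, against 221 and 233 CPM in the siNTC tables, a fold of 0.975 (0.923 to 1.03). LSS, which closes the sterol rings, had 287 and 288 CPM in the siZBTB7A tables, against 278 and 288 CPM in the siNTC tables, a fold of 1.02 (0.968 to 1.07). In both genes the tables of the groups overlapped. The demethylating enzymes CYP51A1 and MSMO1 were at 0.934 (0.779 to 1.12) and 1.06 (0.969 to 1.15), and NSDHL and HSD17B7, which act with MSMO1, at 0.925 (0.750 to 1.14) and 0.909 (0.635 to 1.30). The late enzymes were near 1 as well: EBP, the sterol isomerase, at 1.09 (0.983 to 1.22), SC5D, the sterol desaturase, at 1.01 (0.917 to 1.12), and DHCR7, which makes cholesterol from its last precursor, at 1.03 (0.955 to 1.10). The summed fold of the 9 was 1.01 (0.984 to 1.04), and that of the 7 genes up to FDFT1 was 0.982 (0.951 to 1.01). CYP51A1 and HSD17B7 have 3 and 2 annotated pseudogenes, and CYP51A1 overlaps 2 other annotated genes on the same strand. Their few reads are the more uncertain.

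The regulators did not differ beyond the threshold. Of the 4 SREBP genes and STARD4, edgeR called 0 (1 at an unadjusted p under 0.05, 0 by DESeq2 and 0 by the exact binomial test), and SREBF2 was the 1 gene whose interval lay off 1. SREBF2, which encodes SREBP-2, had 156 and 146 CPM in the siZBTB7A tables, against 170 and 156 CPM in the siNTC tables. The lower siNTC table was at the level of the higher siZBTB7A table, so the groups overlapped. Its fold was 0.927 (0.868 to 0.991), with an edgeR adjusted p of 0.190. SREBF1, which encodes SREBP-1, had 131 and 126 CPM in the siZBTB7A tables, against 122 and 125 CPM in the siNTC tables, a fold of 1.04 (0.965 to 1.12). SCAP was at 1.02 (0.948 to 1.09). INSIG1, itself an SREBP target, was at 1.01 (0.960 to 1.07), with 249 and 249 CPM in the siZBTB7A tables, against 238 and 253 CPM in the siNTC tables. STARD4, which moves cholesterol between membranes, was at 0.979 (0.784 to 1.22).

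Promoters were searched for 1 form of the letters that SREBP-2 reads and for the box of its partner NF-Y. The E-box CACGTG and the GC box GGGCGG were searched as well. The SREBP site is best known as TCACNCCAC, and NF-Y binds the CCAAT box. Promoter windows of 250 bases before an annotated start were taken from RefSeq (GRCh38.p14), which held 39 windows for 28 of the 31 genes (all but FASN, FDFT1 and SQLE). CCAAT, read on both strands, occurred in 25 of these 39 windows, or 64.1%, against 32.0% of all 35116 windows and 33.2% of the 14033 windows of tested genes. TCACNCCAC on either strand occurred in 1 of the 39 windows, that of SREBF2, against 0.883% of all windows. The GC box was in 33 of the 39, or 84.6%, against 42.6% of all windows and 64.0% of those of tested genes. For the E-box it was 5 of the 39, or 12.8%, against 6.34% and 8.32%. CCAAT was thus not the only motif more frequent in these windows. Windows of 1 gene can overlap, and a match is a description and not a binding site. A window without a match can still hold a site in another form. The windows below are those of HMGCS1, the called sterol gene, SREBF2, the 1 gene with both TCACNCCAC and CCAAT, and MSMO1, which has 4 CCAAT matches and was not called. They lie at chr5:43313413-43313662 on the minus strand, the more upstream of 2 windows of that gene, chr22:41832855-41833104 on the plus strand, and chr4:165327419-165327668 on the plus strand. The other HMGCS1 window had 0 matches to TCACNCCAC and 0 to CCAAT. Capitals mark TCACNCCAC and CCAAT or its complement ATTGG, while the E-box and the GC box are not marked.
HMGCS1: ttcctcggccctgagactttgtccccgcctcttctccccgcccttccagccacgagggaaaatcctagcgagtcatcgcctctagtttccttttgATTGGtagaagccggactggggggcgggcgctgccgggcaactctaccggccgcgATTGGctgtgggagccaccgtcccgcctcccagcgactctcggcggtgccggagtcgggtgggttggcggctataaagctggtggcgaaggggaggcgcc
SREBF2: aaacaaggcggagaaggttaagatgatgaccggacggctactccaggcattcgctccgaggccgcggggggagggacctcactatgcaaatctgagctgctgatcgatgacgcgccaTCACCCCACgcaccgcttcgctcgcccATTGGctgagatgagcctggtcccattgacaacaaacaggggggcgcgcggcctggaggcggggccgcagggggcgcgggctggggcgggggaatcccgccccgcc
MSMO1: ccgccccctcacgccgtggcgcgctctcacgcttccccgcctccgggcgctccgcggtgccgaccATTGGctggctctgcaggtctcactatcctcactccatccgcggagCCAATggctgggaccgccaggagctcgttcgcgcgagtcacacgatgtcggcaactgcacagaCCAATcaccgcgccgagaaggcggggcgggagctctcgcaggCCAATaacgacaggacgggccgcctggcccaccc
Counted back from the start, the HMGCS1 matches begin at -155 and -100, and the SREBF2 matches at -133 for the SREBP letters and -106 for the CCAAT box. The MSMO1 matches begin at -185, -139, -76 and -34. The most CCAAT matches in a window of the set were 5, in MVK and in NSDHL, neither of them called. No relation between matches and folds was tested.

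The fatty acid enzymes were more divided. Their summed level was 2406 and 2431 CPM in the siZBTB7A tables, against 2464 and 2468 CPM in the siNTC tables. Both siZBTB7A tables lay below both siNTC tables, but the fold of the sum was only 0.981 (0.965 to 0.997), and without ACACA it was 1.004 (0.984 to 1.02). Of the 10 genes 1 was called higher and 1 lower, and 4 had a fold above 1 and 6 below. Their median log2 fold was -0.07, beside 0.001 over all genes tested. With the GC and length correction that median was -0.05. The summed folds were then close, at 0.985 for the fatty acid arm and 0.987 for the sterol arm. In this arm 4 genes had both siZBTB7A tables above both siNTC tables and 4 had both below. In the sterol arm this held for 3 and 1 of 16. Over all genes tested the shares were 23.5% above and 23.4% below, and over the whole set 25.8% (8 genes) and 16.1% (5 genes). The counting interval lay off 1 for 8 of the 10 fatty acid genes (3 above, 5 below) and for 1 of the 16 sterol genes (0 above, 1 below), against 8.54% above and 8.52% below over all genes tested. The fatty acid genes were also more deeply counted, with a median of 2938 reads against 1875 for the sterol genes. Of genes with at least 2579 reads, 18.5% had an interval above 1 and 20.6% below, and of the set members at that depth this held for 1 and 3 of 5 fatty acid genes and 0 and 1 of 7 sterol genes. The difference between the arms was not tested.

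**Figure D2:**
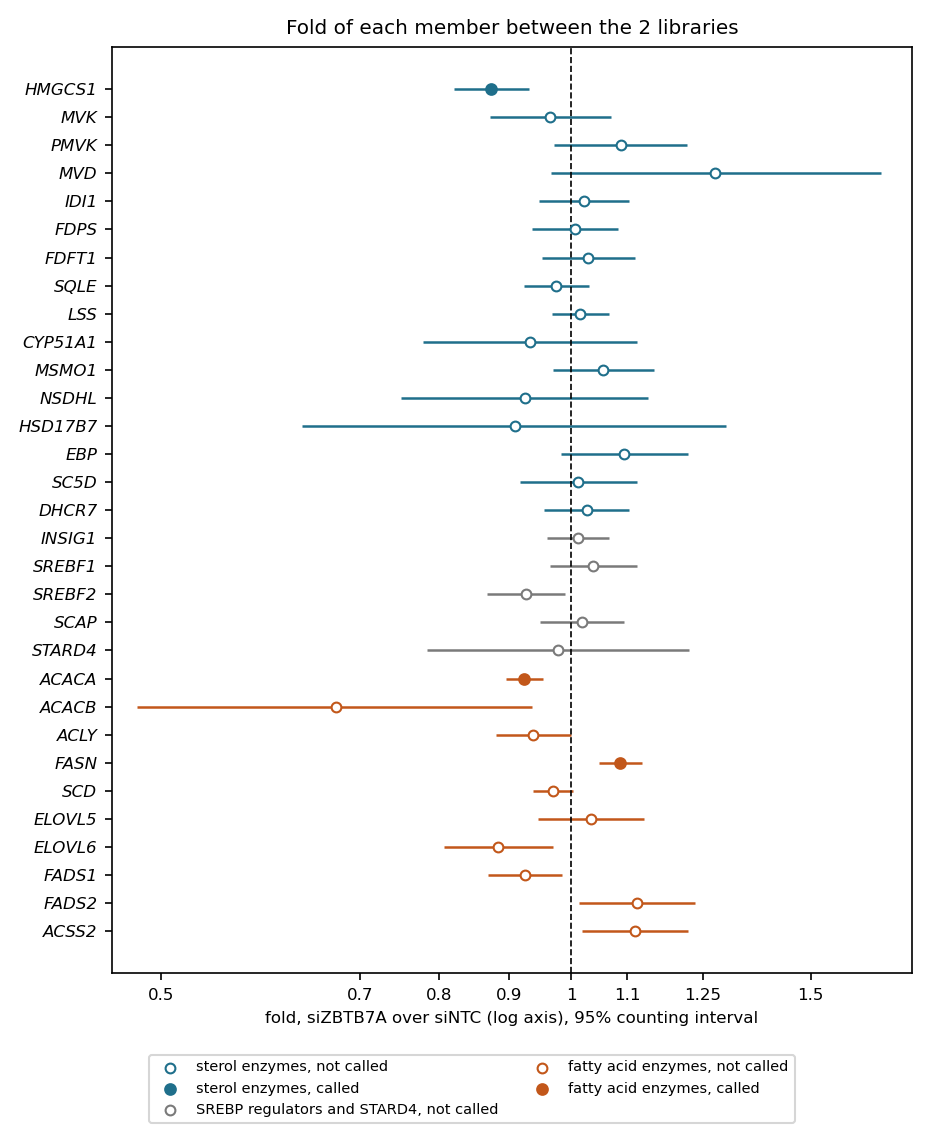
Fold of each gene, siZBTB7A over siNTC, on a log axis, with exact 95% counting intervals; filled points passed the edgeR test. Among sterol enzymes (blue) HMGCS1 at 0.874 has the 1 interval off 1, and MVD at 1.28 has a wide interval that includes 1; among fatty acid enzymes (orange) 8 intervals lie off 1, with ACACA at 0.924 and FASN at 1.09.

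Consecutive enzymes of palmitate synthesis stood on opposite sides of 1. ACACA (ENSG00000278540.4) had 641 and 676 CPM in the siZBTB7A tables, against 707 and 718 CPM in the siNTC tables. Both siZBTB7A tables were below both siNTC tables, by more in the first. The fold was 0.924 (0.895 to 0.953), a log2 fold of -0.11, with an edgeR adjusted p of 0.000407. FASN (ENSG00000169710.6) had 523 and 507 CPM in the siZBTB7A tables, against 464 and 482 CPM in the siNTC tables. Both siZBTB7A tables were above both siNTC tables. The fold was 1.09 (1.05 to 1.13), a log2 fold of 0.12, with an edgeR adjusted p of 0.00138. Without siZBTB7A replicate 1 neither was called (adjusted p = 0.178 for ACACA and 0.0940 for FASN), and without siNTC replicate 1 FASN was not (adjusted p = 0.118). With the GC and length correction, under which 2.69% of all genes tested were called, neither was, at folds of 0.962 (adjusted p = 0.219) and 1.06 (adjusted p = 0.0902).

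Ratios within a library need no scaling between libraries, but those below are not corrected for GC content and length. That correction predicted folds of 1.03 for FASN and 0.960 for ACACA, and its part in the shares was not tested. FASN took 43.9% (43.0% to 44.7%) of the reads of FASN and ACACA together in siZBTB7A, and 39.9% (39.1% to 40.7%) in siNTC. By table it was 44.9% and 42.9% in siZBTB7A, against 39.6% and 40.2% in siNTC, with no overlap between the groups. The sterol enzymes took 39.4% (38.9% to 39.9%) of the reads of both arms in siZBTB7A and 39.0% (38.5% to 39.4%) in siNTC, and there the intervals overlapped. The share of FASN was computed from the same reads as the calls of FASN and ACACA and is no further evidence for them. The shares of the gene pairs below likewise follow from the folds of their genes and add no evidence to them.

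The suppliers of acetyl-CoA were also divided, though neither was called. ACLY, which makes acetyl-CoA from citrate, had 166 and 162 CPM in the siZBTB7A tables, against 184 and 166 CPM in the siNTC tables, a fold of 0.938 (0.880 to 0.999). The highest siZBTB7A table was just under the lower siNTC table. ACSS2, which makes acetyl-CoA from acetate, had 90.6 and 91.5 CPM in the siZBTB7A tables, against 84.2 and 79.3 CPM in the siNTC tables, a fold of 1.11 (1.02 to 1.22). Both siZBTB7A tables were higher. ACLY took 64.3% (62.5% to 66.1%) of the reads of ACLY and ACSS2 in siZBTB7A and 68.2% (66.5% to 69.8%) in siNTC. ACACB had 35 and 26 reads in the siZBTB7A tables, against 53 and 43 reads in the siNTC tables. Its fold was 0.672 (0.480 to 0.937), the lowest of the 31, from few reads, and it was not called (edgeR adjusted p = 0.155).

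None of the 5 elongation and desaturation genes was called by edgeR (3 at an unadjusted p under 0.05, 0 by DESeq2 and 0 by the exact binomial test). SCD had 567 and 589 CPM in the siZBTB7A tables, against 607 and 584 CPM in the siNTC tables. The tables overlapped, and the fold was 0.970 (0.938 to 1.004). SCD has 1 annotated pseudogene, so its unique reads are less certain. ELOVL6, which elongates palmitate to stearate, had 77.8 and 74.6 CPM in the siZBTB7A tables, against 87.0 and 85.3 CPM in the siNTC tables. Both siZBTB7A tables were lower, and the fold was 0.884 (0.807 to 0.970, edgeR adjusted p = 0.104). ELOVL5, which elongates polyunsaturated chains, had 84.2 and 86.2 CPM in the siZBTB7A tables, against 83.5 and 81.3 CPM in the siNTC tables, a fold of 1.03 (0.945 to 1.13). ELOVL5 took 52.8% (50.5% to 55.1%) of the reads of both elongases in siZBTB7A and 48.9% (46.7% to 51.1%) in siNTC, with overlapping intervals.

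The desaturase genes FADS1 and FADS2, neighbours that act in turn on polyunsaturated fatty acids, lay on different sides of 1 without a call. FADS1, the delta-5 desaturase, had 175 and 165 CPM in the siZBTB7A tables, against 172 and 194 CPM in the siNTC tables. The tables overlapped, with siNTC replicate 2 apart from the other 3. Its fold was 0.925 (0.870 to 0.985, edgeR adjusted p = 0.149); without siNTC replicate 1 the log2 fold was -0.20 and it was called (adjusted p = 0.0146), and without siNTC replicate 2 it was -0.02. FADS2, the delta-6 desaturase, had 75.6 and 76.5 CPM in the siZBTB7A tables, against 65.6 and 70.5 CPM in the siNTC tables. Both siZBTB7A tables were higher, with a fold of 1.12 (1.01 to 1.23, edgeR adjusted p = 0.190). FADS1 took 69.0% (67.3% to 70.8%) of the reads of both in siZBTB7A and 72.9% (71.3% to 74.5%) in siNTC. On the same strand in the annotation FADS2 overlaps FEN1 and FADS1 overlaps MIR1908, and FADS2 has 1 annotated pseudogene. The assignment of reads to both genes is uncertain for these reasons.

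**Figure D3:**
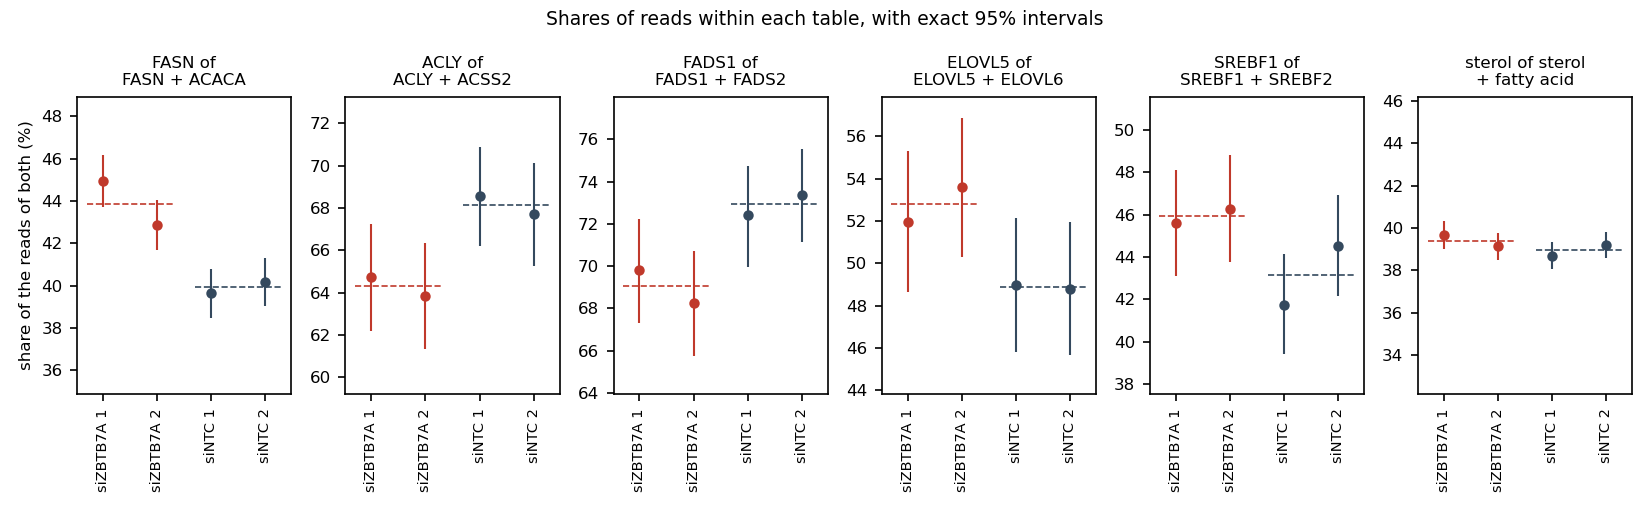
Share (%) of the first named gene or arm in the summed reads of both, in both siZBTB7A tables (red) and both siNTC tables (dark blue); bars are exact 95% intervals, dashed lines the summed tables, and the y axes share a span and do not start at 0. The summed share of FASN is 43.9% in siZBTB7A and 39.9% in siNTC, and that of the sterol enzymes 39.4% in siZBTB7A and 39.0% in siNTC.

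The depth bounded how large an unseen difference could be. For 25 of the 31 genes the whole counting interval lay between 0.8 and 1.25, including all 4 SREBP genes, 12 of the 16 sterol enzymes and 9 of the 10 fatty acid enzymes. The exceptions were MVD, CYP51A1, NSDHL, HSD17B7, STARD4 and ACACB, the least counted. In the other 25 a change of more than 1.25-fold between these 2 libraries was outside the counting interval, which says nothing of the spread between cultures.

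Transcript composition moved with the folds, in the set as in other genes. Across the 31 genes Spearman's rho between log2 fold and the GC content of the longest annotated transcript was 0.41, and -0.39 with its length. Across 1373 genes with at least 2579 reads it was 0.39 and -0.43. The genes of each library share its preparation, so these are descriptions. FASN has a transcript of 65.3% GC, against 48.7% for ACACA and 40.2% for HMGCS1, and ACACA has the longest transcript of the 3 at 9961 bases. With both properties in the fit the call was kept for HMGCS1 and lost for FASN and ACACA, with the values given above.

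**Figure D4:**
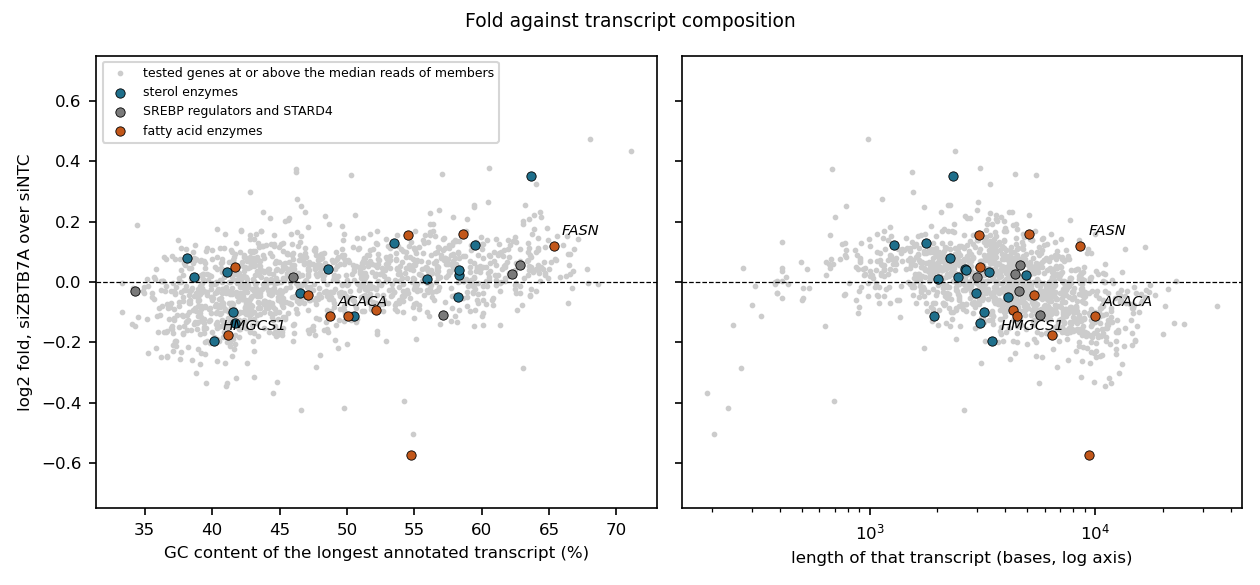
Log2 fold, siZBTB7A over siNTC, against GC content (left) and length on a log axis (right) of each gene's longest annotated transcript, for tested genes with at least 2579 reads (grey) and the 31 genes (colours). Grey points tilt upward with GC content (rho 0.39) and downward with length (rho -0.43), and the 31 genes lie within that cloud apart from ACACB and MVD, which have few reads.

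Other genes of lipid metabolism, in 5 lists of 94 genes, showed no common direction. Of 90 tested, 1 was called higher and 3 lower, or 4.44%, against 4.97% of all genes tested, and their median log2 fold was -0.01. In the list of other sterol and isoprenoid enzymes 1 of 12 was lower: LBR, a sterol reductase that is also the lamin B receptor, had 160 CPM in siZBTB7A and 180 CPM in siNTC, a fold of 0.887 (0.832 to 0.945; edgeR adjusted p = 0.00768, and 0.0503 with the GC and length correction). In the list of SREBP control genes 1 of 15 was lower (2 by the exact binomial test), with a median log2 fold of -0.09. This was MBTPS1, the site-1 protease that makes the first cut in SREBP precursors, with 59.2 CPM in siZBTB7A and 72.2 CPM in siNTC, a fold of 0.820 (0.740 to 0.909; edgeR adjusted p = 0.00872, and 0.00618 with that correction). Among 18 genes of sterol uptake, storage and efflux 1 was lower, the lipoprotein receptor gene VLDLR, with 35.9 CPM in siZBTB7A and 46.5 CPM in siNTC, a fold of 0.773 (0.678 to 0.881; edgeR adjusted p = 0.00562, and 0.0706 with that correction). Among 22 tested glycerolipid genes 1 was higher, CHPT1, a choline phosphotransferase of phosphatidylcholine synthesis, with 168 CPM in siZBTB7A and 147 CPM in siNTC, a fold of 1.14 (1.07 to 1.22; edgeR adjusted p = 0.00406, and 0.000905 with that correction). Of 23 tested genes of fatty acid supply, activation and elongation edgeR called 0 (4 at an unadjusted p under 0.05; 0 by DESeq2 and 0 by the exact binomial test). The most counted of them, the acyl-CoA synthetase gene ACSL3, had 464 CPM in siZBTB7A and 469 CPM in siNTC, a fold of 0.990 (0.953 to 1.03). DESeq2 called 0 of the genes in the 5 lists, but it gave no adjusted p for many of them, VLDLR among these.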

How the data were processed

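RNA-seq of VCaP cells gave 2 tables of whole-number read counts per gene for siZBTB7A and 2 for siNTC, deposited by the authors with no normalization. Libraries came from a stranded total RNA kit, per the labels' protocols. Per the submitters' processing notes the tool was STAR 2.4.2a and the build hg19 or GRCh37; the release of the annotation was not given. Per the file headers, reads that map to several places or are ambiguous between genes are counted apart from genes. Counts on the main strand were used; they exceeded those on the other strand by 24.9 to 25.5 times. Rows that name no gene held 50.8% to 51.2% of reads and were left out. Genes were named by GENCODE 29 through Ensembl numbers (55698 of 60308), which also gave exon lengths and transcript GC content; its build differs, so no gene coordinates are given, and promoter coordinates are RefSeq's.

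All 4 tables were fitted in edgeR 4.0.16 (R 4.3.3) with TMM factors, genes kept by filterByExpr, a robust quasi-likelihood test and no covariate beside group, checked on simulated data. Alternatives were DESeq2 1.42.0, DESeq2 size factors, an exact binomial test of summed tables, other filters, unstranded counts, mitochondrial genes left out, the replicate block, leaving out each table, and a spline on GC content and length. Every member, ZBTB7A, each called gene of the other lists, and otherwise a list's most counted gene, are named. Members and lists were chosen with earlier results of these data known, and the groups of steps within each arm after the counts were seen. Labels do not say that the replicates were separate cultures. Other computations used Python 3.11.15, scipy 1.17.1 and pandas 2.3.3.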

Additional observations from a re-analysis of the deposited data

How the results depend on the processing

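DESeq2 called 105 genes and 0 members, against 639 genes and 3 members by edgeR, and the cause was not tested. Of the 12848 genes that edgeR tested, 9832 had no adjusted p from DESeq2 and could not be called by it. The GC and length correction left 346 genes and 1 member, HMGCS1. Leaving out a table left 303 to 373 genes, from fewer samples, and 1 to 3 members: 1 (HMGCS1) without siZBTB7A replicate 1 and 2 (ACACA and FASN) without siNTC replicate 2. The replicate block called 654 genes (635 of them among the 639) and the same 3 members. The numbers were not read as pairs, since the correlation of deviations between tables with a shared number was -0.015 (6957 genes). The count of members was 3 with DESeq2 size factors, without mitochondrial genes, with the exact binomial test, with no low-count filter, with a minimum mean of 1 CPM and with unstranded counts.

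The summed fold without a table was 0.986 to 1.01 for the sterol arm and 0.975 to 0.986 for the fatty acid arm, with median log2 folds of -0.004 to 0.06 and -0.07 to -0.02. The sign of HMGCS1, ACACA and FASN was the same in every alternative run. Among members not called, 6 changed sign with the GC and length correction, 1 with unstranded counts, and 2 to 6 without a table. With 1 library per group, depth limits the counting intervals only, and the spread between cultures is unknown.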

Other observations

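Reads on the strand opposite to each gene were used in no comparison. Of the 31 genes, most had few such reads in relation to their own, and FADS2 had the most, with 122 in siZBTB7A and 139 in siNTC, or 14.4% and 17.3% of its main-strand reads. FADS1 had 87 in siZBTB7A and 72 in siNTC, a ratio of 1.28 (0.925 to 1.77), and MVK had 59 in siZBTB7A and 92 in siNTC, a ratio of 0.679 (0.481 to 0.951), the 1 gene whose interval lay off 1. These values were picked out after they were seen and carry no test.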
